A study of Mus musculus with 514 samples.

Results

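Nuclear-encoded subunits of respiratory complexes II to V, together with cytochrome c, were followed from the mouse oocyte to the 8-cell embryo and in embryos lacking the nuclear receptors Nr5a2, Esrrb or both. The 36 genes were chosen by name from the 55168 named genes of the full-length expression table: 4 of complex II, 9 of complex III, 10 of complex IV, 12 of complex V and the somatic cytochrome c gene Cycs. The choice was by gene name and used no measured value as a rule, but it was made with earlier results of these data known. Each library came from a single metaphase II (MII) oocyte or a single embryo at 1 of 4 stages of cleavage: E2C and L2C, the early and the late 2-cell stage, 4C and 8C. Of 514 samples, 263 full-length libraries were used. Levels are given in TPM, the share of a library's transcripts that comes from a gene, corrected for transcript length and scaled to the same total in each library.

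The prefix mz marks embryos that lack (or, in controls, carry) the allele from both mother and zygote, m marks the maternal loss alone and z the zygotic loss alone. NrKO embryos lack Nr5a2, EKO embryos lack Esrrb and DKO embryos lack both receptors, while NrHet and DHet are heterozygous controls for Nr5a2 and for both genes, and Nrpp carries only wild-type or floxed alleles. Oocytes comprised 9 Nrpp, 18 NrHet and 12 NrKO. E2C embryos comprised 21 mz_Nrpp, 29 mz_NrHet, 22 mz_NrKO, 18 m_NrKO and 12 z_NrKO. L2C embryos comprised 7 mz_DHet, 10 mz_NrKO, 10 mz_EKO, 6 mz_DKO, 7 z_NrHet and 6 z_NrKO. At 4C there were 6 mz_DHet, 5 mz_NrKO, 4 mz_EKO and 10 mz_DKO, and at 8C 21 mz_DHet and 10 each of mz_NrKO, mz_EKO and mz_DKO. The Cre driver, the deleted exons and the mothers behind each embryo are not given in the sources used here, so p-values measure the spread between single embryos, and littermates cannot be told from unrelated embryos.

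The electron transport chain carries electrons to oxygen and stores the energy as a proton gradient across the inner mitochondrial membrane. Complex II (succinate dehydrogenase) passes electrons from the tricarboxylic acid cycle to ubiquinone, complex III hands them to cytochrome c, complex IV (cytochrome c oxidase) reduces oxygen with them, and complex V (ATP synthase) uses the gradient to make ATP. Complex II is encoded wholly in the nucleus, whereas complexes III, IV and V also need subunits encoded in mitochondrial DNA, whose genes were not analysed here. The early embryo inherits its mitochondria from the oocyte and draws ATP from them during cleavage.

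Library totals over the named genes lay between 814735 and 995883 TPM, and between 10655 and 15971 genes exceeded 1 TPM. TPM keep no read counts, so the depth is unknown. The oocyte marker Gdf9 had a median of 4157 TPM in Nrpp oocytes and 0.851 TPM in 8C controls, Zscan4f of the 2-cell burst stood at 467 TPM at E2C, and Krt18 at 467 TPM and Cdx2 at 87.3 TPM at 8C. The 10 markers of cumulus and granulosa cells summed to control medians of 107.6, 66.0, 302, 208 and 26.3 TPM over the 5 stages in order, with Amhr2 (299 TPM at L2C) and Cyp19a1 (86.3 TPM in oocytes) the highest, while Fshr, Foxl2, Ptx3 and Tnfaip6 had a median of 0 TPM at every stage. The 6 oviduct markers summed to 5.55, 9.96, 198, 199 and 170 TPM, of which Epcam alone had 3.96, 7.17, 197, 198 and 166 TPM, while Foxj1, Pax8 and Dynlrb2 had a median of 0 TPM at every stage, as did all 8 sperm markers. The part of these markers in the results was not tested. In bulk RNA of an embryo, fewer cells and less RNA per cell cannot be told apart. The Nr5a2 level was not lower in knockouts: the medians at 8C were 485 TPM in mz_DHet, 656 in mz_NrKO and 790 in mz_DKO. A value over the whole gene includes exons outside a deleted part, so it does not check this label, and genotypes are used as labelled. Esrrb had medians at 8C of 48.7 TPM in mz_DHet, 20.3 in mz_EKO and 26.6 in mz_DKO.

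In control development the members were near the floor in the oocyte and abundant at 8C. In Nrpp oocytes 27 of the 36 had a median under 10 TPM and 7 a median of 0, while 3 exceeded 100 TPM: Atp5b and Atp5a1, the catalytic beta and the alpha subunit of the F1 head of ATP synthase, and Sdha, the flavoprotein that oxidises succinate. By 8C 29 members exceeded 100 TPM, 2 remained under 10 TPM (Sdhc and Cycs) and none had a median of 0. The summed level of the members was 1521, 1924 and 2093 TPM (lowest, median and highest) in Nrpp oocytes and 9172, 10870 and 20373 TPM in mz_DHet embryos at 8C. The ranges did not overlap.

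The increase came mainly at 2 steps. The median summed level was 1924, 2576, 6171, 5433 and 10870 TPM over the 5 stages in order, so the sum grew most in TPM from 4C to 8C, while the median log2 difference per gene was largest from E2C to L2C. A step was called at an adjusted p under 0.05 and at least 2-fold, and on that rule 40.5, 69.5, 8.05 and 46.7 percent of all genes were called at the 4 steps in order. From E2C to L2C 26 members rose and 2 fell, with a median log2 difference of 2.87 over the members against -0.12 over the 15453 genes tested, of which 32.6 percent rose and 36.9 percent fell. From the oocyte to E2C 15 rose and none fell (median 0.92 against 0.45; 32.4 percent of all genes rose). From 4C to 8C 22 rose and none fell (median 1.18 against -0.40; 14.3 percent of all genes rose). In UMI reads 10 members rose and 1 fell at that step. The UMI reads cover 16 of the 21 controls at 8C and none of 15 July 2022, so kind of read and set of embryos both differ. Between L2C and 4C no member was called (8.05 percent of all genes), and 3 had an unadjusted p under 0.05. When libraries were rescaled by median-of-ratios factors, the median of all genes at the oocyte step moved to 0.19 and the member calls to 10 higher and 1 lower, and at the last step they moved to -0.10 and to 30 higher and none lower. All oocyte and E2C libraries carry later dates, by year, than the libraries of L2C, 4C and 8C, and the controls changed from Nrpp to DHet at the same point. For the step from E2C to L2C, stage, date and control genotype cannot be told apart. Oocyte and E2C libraries share no date, so stage and date cannot be told apart for the step from the oocyte to E2C. The step from 4C to 8C also crosses dates: with the 8C controls of 8 March 2022 alone, 18 members rose and 1 fell.

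**Figure D1:**
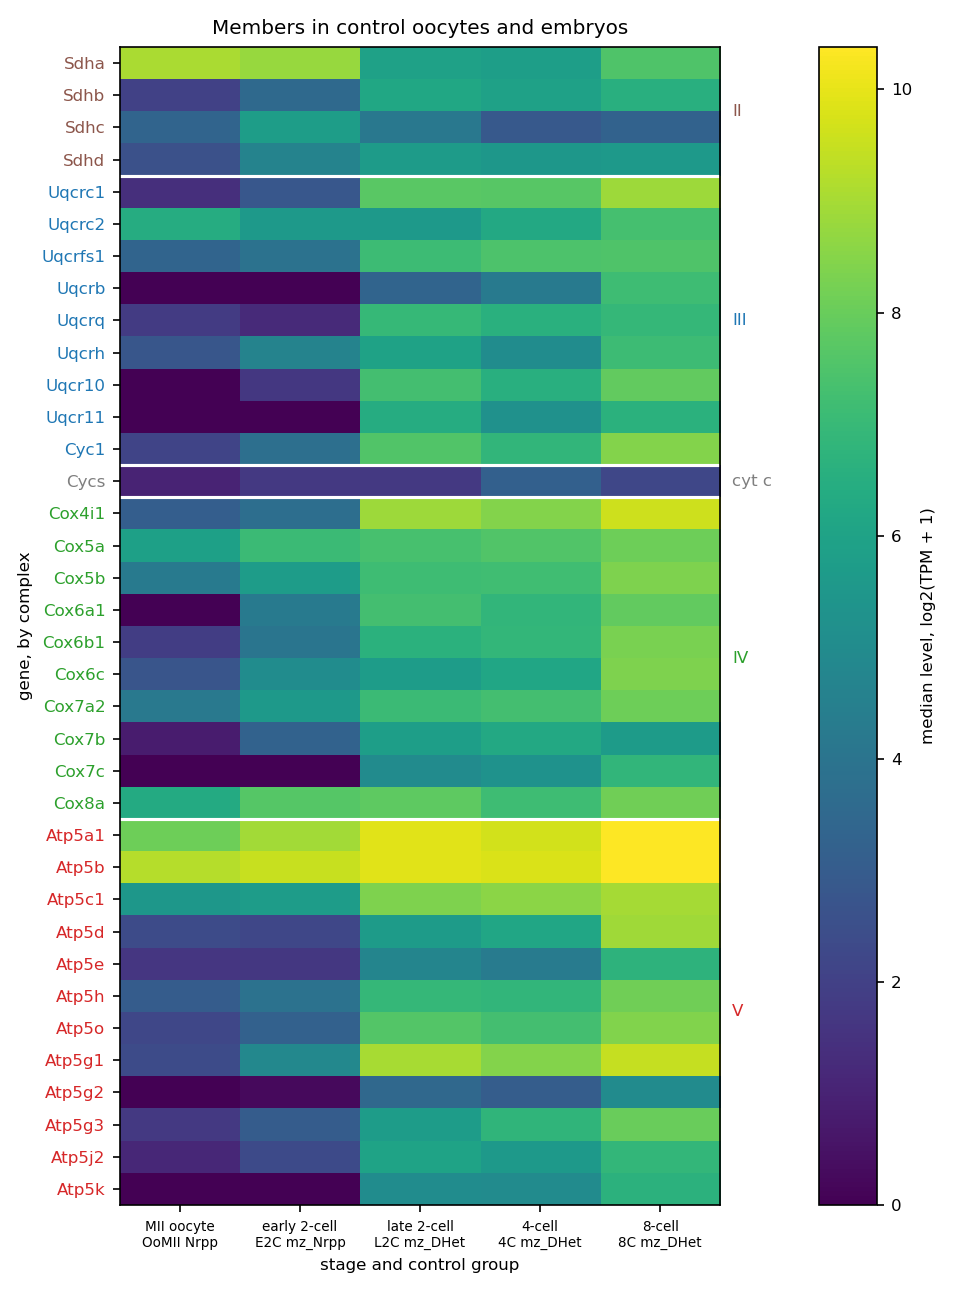
Median level of each of the 36 genes (rows, grouped by complex) in the control group of each stage (columns), with colour showing log2(TPM + 1). Sdha is bright in the oocyte and dims at L2C, whereas most rows of complexes III, IV and V turn bright at L2C and again at 8C.

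Within complex II, Sdha ran against most other members. It measured 449, 529 and 621 TPM (lowest, median and highest) in Nrpp oocytes, 339, 440 and 635 TPM at E2C, 41.5, 59.7 and 96.05 TPM at L2C, 39.2, 55.8 and 73.0 TPM at 4C and 51.1, 184 and 277 TPM at 8C. Every oocyte and E2C control lay above every control of L2C, 4C and 8C. Sdha fell by 2.84 on the log2 scale from E2C to L2C (SE 0.188; adjusted p = 5.06e-22) and rose by 1.51 from 4C to 8C. Sdhc, a membrane anchor that binds haem, had medians of 9.03, 53.6, 16.8, 6.54 and 8.67 TPM over the 5 stages. It rose to E2C (log2 2.37, SE 0.35) and fell to L2C (log2 -2.29, SE 0.383; adjusted p = 2.35e-07). Sdhb, the iron-sulfur subunit, rose at both early steps (log2 1.72 and 2.74), as did Sdhd, the other membrane anchor (log2 2.01 and 1.15). The share of complex II in the summed level of the members had a median of 29.9 percent in the oocyte, 21.8 percent at E2C, 3.46 percent at L2C and 3.09 percent at 8C, and the L2C range (2.43 to 4.51 percent) did not overlap that of E2C (15.3 to 25.1 percent).

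In complex III, 8 of 9 genes rose between E2C and L2C, and that step held the largest change of the family. Uqcr10, a small subunit of the complex, had a median of 0 TPM in oocytes with a highest value of 2.31 TPM, and then 2.20 TPM at E2C, 153 TPM at L2C, 93.5 TPM at 4C and 235 TPM at 8C. Its step from E2C to L2C was 5.88 on the log2 scale (SE 0.418; adjusted p = 1.70e-20), and the lowest L2C value of 126 TPM lay above the highest E2C value of 21.7 TPM. Uqcrq (log2 5.84), Uqcr11 (5.41) and the core protein Uqcrc1 (4.98) followed at the same step. Uqcrc2, the other core protein, was the exception: its medians were 83.9, 46.9, 47.4, 76.7 and 158 TPM, with the lowest log2 difference of any member from the oocyte to E2C (-0.87, SE 0.214, under the 2-fold threshold). Uqcrb rose late. It had medians of 0 TPM in oocytes and at E2C, 9.18 TPM at L2C, 18.4 TPM at 4C and 140 TPM at 8C, and its last step of 3.21 (SE 0.513; adjusted p = 1.99e-07) was the largest of the members from 4C to 8C. At 8C Uqcrc1 was the highest gene of the complex (464 TPM) and Uqcr11 the lowest (98.2 TPM).

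In complex IV, 6 of 10 genes rose from the oocyte to E2C, 7 from E2C to L2C and 8 from 4C to 8C. At the first of these steps 32.4 percent of all genes rose. So did 3 of 4 genes of complex II, 2 of 9 of complex III and 4 of 12 of complex V. Cox6a1 measured 0, 0 and 5.32 TPM in oocytes and 1.67, 18.5 and 63.1 TPM at E2C, with ranges that overlapped, and its log2 step of 3.50 (SE 0.301; adjusted p = 2.34e-16) was the largest of the members from the oocyte to E2C. Cox4i1, a nuclear subunit needed to assemble the complex, had medians of 7.54, 12.4, 470, 352 and 763 TPM. Its main step came between E2C and L2C (log2 5.15, SE 0.25). Cox8a (79.8, 201, 221, 142 and 276 TPM) and Cox5a (58.6, 134, 163, 189 and 270 TPM) were already present in the oocyte and were not called at the step from E2C to L2C. At 8C Cox4i1 was the highest and Cox7b, at 51.5 TPM, the lowest gene of the complex.

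In complex V, 9 of 12 genes rose from E2C to L2C and 7 from 4C to 8C. Atp5b (597, 730, 973, 879 and 1309 TPM) and Atp5a1 (272, 491, 957, 808 and 1332 TPM) were high at every stage and did not reach the 2-fold threshold at any step. The delta and epsilon subunits of the central stalk, which turns inside the F1 head, rose from low levels. Atp5d had medians of 4.24 and 3.67 TPM at the first stages, then 51.3, 69.5 and 481 TPM, and Atp5e went from 2.10 TPM in the oocyte to 104.02 TPM at 8C. Their steps from 4C to 8C were 2.73 and 2.77 on the log2 scale. Atp5a1 was the highest and Atp5g2, at 31.3 TPM, the lowest gene of the complex at 8C. Complex V held between 52.5 and 54.3 percent of the members' summed level at each stage by the median. Cycs, the soluble electron carrier between complexes III and IV, was not called at any step, with medians of 1.04, 2.34, 2.29, 7.98 and 3.61 TPM.

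Among the other respiratory genes, 28 of 36 complex I subunits rose and 2 fell between E2C and L2C (median log2 2.69), and 21 rose and 1 fell between 4C and 8C (median 1.41). Of 14 genes of the tricarboxylic acid cycle, which feeds complex II, 4 rose and 6 fell between E2C and L2C. Of 36 assembly factors tested, which build the complexes and insert their haem and copper, 16 rose and 5 fell at that step. Over all genes 32.6 percent rose and 36.9 percent fell between E2C and L2C, and the counts of the tricarboxylic acid cycle lie near these shares. Between 4C and 8C 14.3 percent of all genes rose, and 5013 of 15453 fell.

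Promoter letters of 28 members were matched in RefSeq (GRCm38.p6), as windows of 250 bases before and 50 after a gene's start. Sdhc, Uqcrc2, Uqcrb, Uqcrq, Cyc1, Cox4i1, Cox6c and Atp5a1 had no entry. NRF1 is a transcription factor known to bind promoters of many respiratory genes, and its palindromic motif of 10 bases, the capitals in the lines that follow, was found in the windows of 4 members (Atp5k, Cox6a1, Atp5g2 and Uqcrc1) and in 0.971 percent of all 32851 windows. A match is a description of the letters and no evidence of binding. The 250 bases before the start are shown for 3 of them, all on the minus strand, because Atp5k and Cox6a1 rose from E2C to L2C while Atp5g2 was not called. Uqcrc1 also rose at that step, and its motif lies 31 to 40 bases after the start, outside the bases shown. The capitals mark the NRF1 motif.
Cox6a1 (chr5:115348959-115349208): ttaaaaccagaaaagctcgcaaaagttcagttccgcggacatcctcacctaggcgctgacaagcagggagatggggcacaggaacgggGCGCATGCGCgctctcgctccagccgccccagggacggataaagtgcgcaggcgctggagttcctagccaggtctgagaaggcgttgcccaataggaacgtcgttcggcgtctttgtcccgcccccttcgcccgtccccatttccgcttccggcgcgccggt
Atp5k (chr5:108434400-108434649): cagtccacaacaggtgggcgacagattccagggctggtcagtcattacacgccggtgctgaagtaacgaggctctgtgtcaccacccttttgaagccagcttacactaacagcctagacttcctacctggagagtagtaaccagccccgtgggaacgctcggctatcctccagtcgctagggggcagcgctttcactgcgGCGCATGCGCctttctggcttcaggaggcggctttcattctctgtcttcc
Atp5g2 (chr15:102671048-102671297): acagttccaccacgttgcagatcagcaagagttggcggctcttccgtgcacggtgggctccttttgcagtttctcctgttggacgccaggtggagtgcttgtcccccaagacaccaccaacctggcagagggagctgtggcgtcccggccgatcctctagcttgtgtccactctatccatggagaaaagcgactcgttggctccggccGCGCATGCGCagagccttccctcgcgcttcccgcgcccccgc
The motif starts 162 bases before the start of Cox6a1, 50 before that of Atp5k and 42 before that of Atp5g2. Between E2C and L2C Atp5k went from a median of 0 to 31.9 TPM and Cox6a1 from 18.5 to 155 TPM (log2 4.37 and 3.19, both called), while Atp5g2 went from 0.201 to 10.3 TPM and was not called (log2 1.28, SE 0.77). The motif CCGGAAGT of ETS factors, a family that includes the respiratory regulator GABP, was found on either strand in 4 members (Uqcrh, Uqcr11, Atp5h and Cox8a) and 3.89 percent of all windows, and AAGATGGCG of YY1 in Atp5j2 and 1.40 percent. Each motif was searched on both strands, and none contains another.

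Atp5g1, Atp5g2 and Atp5g3 encode the same mature subunit c, whose copies form the rotating ring of ATP synthase, from separate genes with different presequences. Atp5g1 measured 0.636, 4.17 and 7.79 TPM (lowest, median and highest) in Nrpp oocytes, 10.5, 27.5 and 107.9 TPM at E2C, 400, 520 and 693 TPM at L2C, 271, 350 and 392 TPM at 4C and 538, 713 and 2102 TPM at 8C. Atp5g3 had medians of 2.31, 7.22, 52.5, 108.3 and 259 TPM over the same stages, and Atp5g2 of 0, 0.201, 10.3, 7.34 and 31.3 TPM. Atp5g1 rose at 3 steps (log2 2.71, 4.16 and 1.28) and Atp5g3 at the first 2 of them (1.66 and 3.00), whereas Atp5g2, with SEs of 0.70 to 0.98, was called at none. In full-length reads the median share of the 3 genes' total at 8C was 72.3 percent for Atp5g1, 1.69 percent for Atp5g2 and 24.5 percent for Atp5g3.

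These shares depended on the kind of read. The same embryos gave reads anchored at the 5' end of transcripts that carry a unique molecular identifier (UMI), deposited as TPM for 110 libraries at L2C, 4C and 8C. They come from the same embryos as the full-length reads and are not independent of them. In UMI reads of mz_DHet embryos at 8C (n = 16) the median shares were 27.9 percent for Atp5g1, 28.8 percent for Atp5g2 and 45.0 percent for Atp5g3, with an Atp5g1 range of 20.6 to 36.9 percent that did not overlap the full-length range of 58.4 to 95.6 percent (n = 21). Atp5g2 had a median of 334 TPM in UMI reads against 31.3 TPM in full-length reads. At L2C the UMI shares were 51.5, 18.4 and 29.8 percent, against 88.9, 1.80 and 8.82 percent in full-length reads.

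Of the 36 members, 25 had a higher median in UMI than in full-length reads at 8C. The ratio of UMI to full-length level ran from 0.255 for Cyc1, cytochrome c1 of complex III (90.1 against 353 TPM), to 19.6 for Cycs (70.6 against 3.61 TPM). Cox7c, a small complex IV subunit, stood at 1097 TPM in UMI and 113.5 TPM in full-length reads. Across the 36 genes, which share libraries and are not independent, Spearman's rho was 0.51 between the levels of both kinds of read and -0.59 between their ratio and the length of the longest principal coding transcript (371 to 4715 bases). An order of levels between members holds for its kind of read. A fold between groups compares a gene with itself, but it can still differ by gene where the groups differ in date. In mz_DHet controls at 8C the ratio of July to March medians ran from 0.327 for Atp5g3 to 9.26 for Atp5k. Across the 36 genes Spearman's rho between that ratio and transcript length was -0.54. Named pseudogene copies were low: of 8 in the table, Cox5b-ps had the highest median at 8C, 20.2 TPM against 332 TPM for Cox5b.

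**Figure D2:**
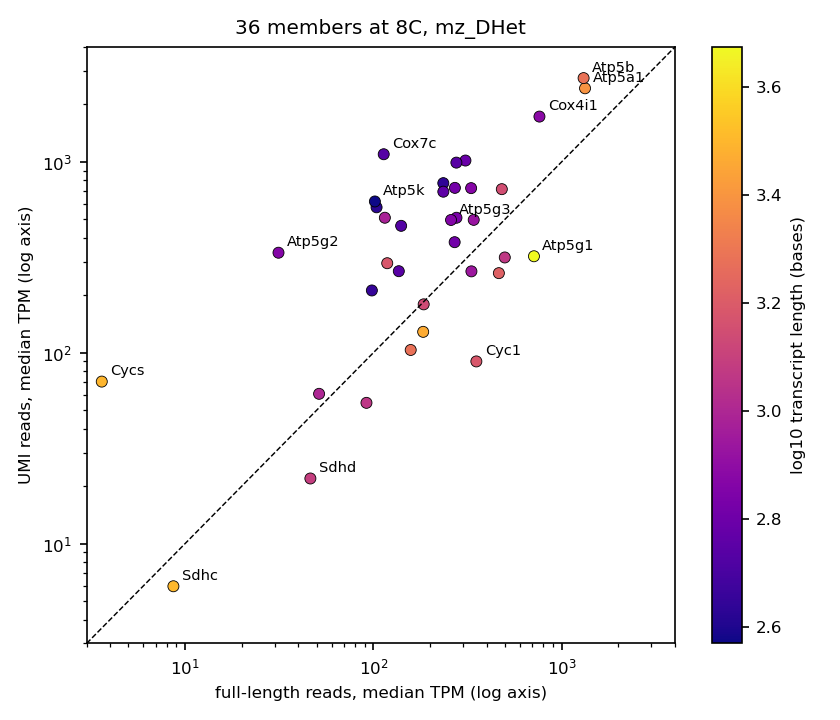
Median level of the 36 genes in mz_DHet embryos at 8C in full-length reads (horizontal axis, TPM, log scale, 21 libraries) and in UMI reads (vertical axis, TPM, log scale, 16 libraries), with the line of equal levels. Cycs, Cox7c and Atp5g2 lie far above the line and Cyc1 below it.

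Loss of Nr5a2 in the oocyte left no member called. Of the 36 genes, 20 passed the low-value filter in oocytes, none was called against NrHet (0.212 percent of 8952 genes were), and 2 had an unadjusted p under 0.05. The median log2 difference was -0.04 over the members and 0.00 over all genes. Cox5a, a matrix-side subunit of complex IV, measured 19.3, 60.9 and 99.7 TPM in NrKO oocytes against 40.6, 88.1 and 116 TPM in NrHet (log2 -0.45, SE 0.142; adjusted p = 0.155). Atp5c1, the gamma subunit that forms the rotating shaft, measured 36.3, 49.5 and 73.9 TPM against 20.3, 33.1 and 65.3 TPM (log2 0.30, SE 0.148; adjusted p = 0.414). Both pairs of ranges overlapped. The 16 members that did not pass the filter were Sdhb, Uqcrb, Uqcrq, Uqcr10, Uqcr11, Cycs, Cox6a1, Cox7b, Cox7c, Atp5d, Atp5e, Atp5o, Atp5g2, Atp5g3, Atp5j2 and Atp5k, which lay low in oocytes of every genotype.

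At E2C 1 of 32 tested members was called in mz_NrKO against mz_NrHet, beside 5.17 percent of the 13040 genes tested (4.5 percent lower). The median log2 difference was -0.25 over the members and -0.09 over all genes, and 23 of the 32 values were negative. Atp5b, the catalytic subunit of ATP synthase (chromosome 10, 128083273 to 128090391, plus strand, mm10), measured 88.2, 579 and 777 TPM in mz_NrKO against 490, 732 and 963 TPM in mz_NrHet. The ranges overlapped, and 20 of 22 knockout embryos lay below the control median. Atp5b fell by 0.35 on the log2 scale (SE 0.107; adjusted p = 0.0331). The lowest value belonged to the library labelled mz_NrKO replicate 1, which had the lowest TPM total of all libraries (814735). Without it the difference was -0.23 and was still called, but it was not called without the low-value filter, with the replicate block (-0.34), with only the 2 groups compared (-0.34), with mz_Nrpp as control (-0.38), or within 1 August (-0.36) or 7 November (-0.42). The third date of these knockouts, 14 November, holds 2 of them and was not tested alone. The summed 2-cell burst markers, all 8 of the list, had a median of 272 TPM (15.3 to 1124) in mz_NrKO and 1448 TPM (102.04 to 5578) in mz_NrHet, and their part in the result was not tested.

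Maternal or zygotic loss alone gave no member call at E2C, against the same mz_NrHet embryos. Of all genes, 0.245 percent were called in m_NrKO and 0 percent in z_NrKO, where 701 genes and 2 members had an unadjusted p under 0.05. In m_NrKO the smallest p-values belonged to Uqcr10 (0, 4.02 and 18.2 TPM against 0, 2.11 and 8.87 TPM; log2 1.10, SE 0.403; adjusted p = 0.191) and Atp5g3 (log2 -0.77, SE 0.296; adjusted p = 0.22). In z_NrKO they belonged to Cox6a1 (15.1, 24.0 and 80.9 TPM against 3.79, 14.5 and 45.2 TPM; log2 0.60, SE 0.279) and Cox6c (log2 0.45, SE 0.218), both at an adjusted p of 0.899. All 12 z_NrKO embryos lay above the control median for Cox6a1, and the ranges overlapped. Uqcrb, Uqcr11, Cox7c and Atp5k did not pass the filter at E2C.

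At L2C all 36 members were tested and none was called in any knockout. All 10 mz_NrKO embryos are of 8 March, as are only 2 of the 7 mz_DHet controls, so their comparison within a date rests on 2 controls. Without a date factor 3 members were called in mz_NrKO and 1 in mz_EKO. The shares of all 14147 genes called were 0.127 percent in mz_NrKO, 0 percent in mz_EKO and 0.141 percent in mz_DKO, each against the same mz_DHet embryos, and 0.099 percent in z_NrKO against z_NrHet. In mz_EKO 947 genes and 4 members had an unadjusted p under 0.05. The member median was -0.25 in mz_NrKO, -0.42 in mz_EKO, -0.09 in mz_DKO and -0.05 in z_NrKO, beside medians of all genes of 0.02, -0.01, 0.04 and -0.05, and 29 of 36 values were negative in both mz_NrKO and mz_EKO.

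The smallest p-value at L2C belonged to Cox8a, a small nuclear subunit of cytochrome c oxidase, in mz_DKO. It measured 85.02, 122 and 184 TPM in 6 mz_DKO embryos against 155, 221 and 290 TPM in 7 controls (log2 -0.90, SE 0.25; adjusted p = 0.142). All 6 lay below the control median, and the ranges overlapped. Atp5d stood the other way, at 81.7, 121 and 189 TPM in mz_DKO against 24.8, 51.3 and 93.4 TPM (log2 0.89, SE 0.529; adjusted p = 0.703), with all 6 above the control median. In mz_NrKO Atp5g3 measured 8.53, 27.0 and 74.2 TPM against 33.0, 52.5 and 144 TPM (log2 -1.04, SE 0.441; adjusted p = 0.513), followed by Atp5j2, subunit f of the membrane sector (log2 -0.99, SE 0.432). In mz_EKO the smallest p-values were those of Cox5a (log2 -0.74, SE 0.306) and Cox6c (log2 -0.77, SE 0.334), both at an adjusted p of 0.734. In z_NrKO they were those of Cox8a (118, 152 and 260 TPM against 188, 228 and 323 TPM; log2 -0.56, SE 0.231; adjusted p = 0.461) and Cox7b (log2 -0.98, SE 0.461).

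No member was called at 4C either, where 0.675 percent of 13044 genes were called in mz_NrKO, 0 percent in mz_EKO (803 genes and 2 members at an unadjusted p under 0.05) and 2.58 percent in mz_DKO, all against the same 6 controls. Of those controls a single embryo carries the date 22 May, as most mz_NrKO and mz_EKO embryos do, and the others carry 17 June. Comparisons within 22 May therefore rest on that control. Cox8a had the smallest member p in both groups that lack Nr5a2. In mz_NrKO its values were 82.6, 95.4, 100.0, 100.7 and 172 TPM, against 127, 142 and 217 TPM (lowest, median and highest) in mz_DHet (log2 -0.69, SE 0.246; adjusted p = 0.224). In mz_DKO it measured 61.4, 92.1 and 197 TPM (log2 -0.63, SE 0.197; adjusted p = 0.0952). Of the knockouts, 4 of 5 and 9 of 10 lay below the control median, and the ranges overlapped. Atp5g1 in mz_NrKO was at 346, 433, 467, 679 and 757 TPM against 271, 350 and 392 TPM (log2 0.46, SE 0.187; adjusted p = 0.311), and Atp5a1 in mz_DKO at a median of 869 against 808 TPM (log2 0.28, SE 0.108; adjusted p = 0.218). In the 4 mz_EKO embryos Cox7b measured 2.89, 19.2, 68.5 and 69.9 TPM against 30.4, 75.2 and 109 TPM (log2 -1.58, SE 0.654; adjusted p = 0.797) and Cox6b1 67.3, 73.7, 105.3 and 116 TPM against 69.9, 116.6 and 131 TPM (log2 -0.51, SE 0.244; adjusted p = 0.797).

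At 8C the libraries of different dates differed more than the genotypes did in the members' summed level. In mz_DHet controls the sum had a median of 10629 TPM (9172 to 12103) in 15 embryos of 8 March 2022, 11674 TPM in 2 of 23 February and 19498 TPM (16673 to 20373) in 4 of 15 July. The 15 July controls lay above all others. In mz_NrKO the medians were 10976 TPM (n = 6), 14671 TPM (n = 1) and 13609 TPM (n = 3) on the same dates. Without regard to date the medians were 10870 TPM in mz_DHet, 12688 in mz_NrKO, 10455 in mz_EKO and 10318 in mz_DKO, and on 8 March alone they were 10629, 10976, 10423 and 10918 TPM. For complex IV the medians without regard to date were 2832 TPM in mz_DHet and 4000 TPM in mz_NrKO, and on 8 March 2711 and 2827 TPM.

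Members differed in how their levels went with the date. Of the 36, 26 had a higher median in the 15 July than in the 8 March controls and 10 a lower one, and for 19 every 15 July control lay above every 8 March control, while for 5 every one lay below. Atp5k, subunit e of the membrane sector, was 9.26 times as high on 15 July (886 against 95.7 TPM) and Uqcrb 949 against 139 TPM, whereas Atp5g3 (91.04 against 278 TPM), Sdha (83.4 against 191 TPM) and Atp5a1 (653 against 1348 TPM) were lower. Across the 36 genes Spearman's rho between this ratio and transcript length was -0.54, a description over genes that share libraries. The 18 genes with transcripts shorter than the median of 852 bases had a median ratio of 2.84 and the other 18 of 1.11. Neither mz_EKO nor mz_DKO has a library of 15 July, and date entered every fit at this stage as a factor.

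**Figure D3:**
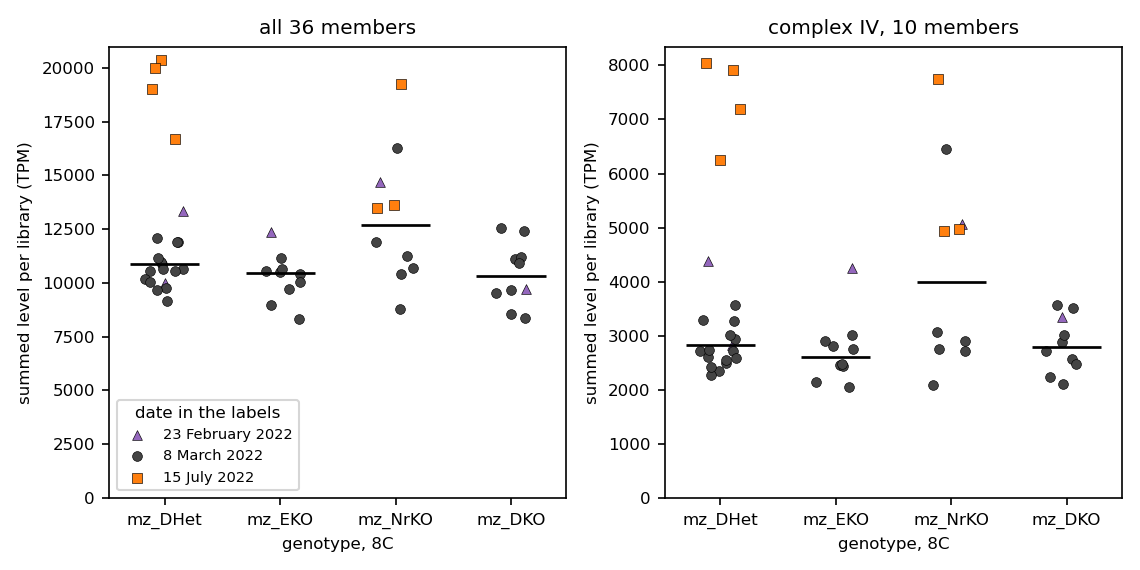
Summed level of all 36 members and of the 10 complex IV genes in each 8C library (points, TPM, linear axis from 0) by genotype, coloured by the date given in the labels, with bars at the group medians. The 4 mz_DHet points of 15 July lie between 16673 and 20373 TPM for all members, above every other control.

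In mz_NrKO at 8C 1 of 36 members rose and 4 fell. Of all 10876 genes tested 28.3 percent were called, 14.1 percent higher and 14.2 percent lower. The median log2 difference was 0.01 over the members and 0.00 over all genes, and 20 of the 36 values were positive. The gene that rose is Uqcrfs1, the Rieske iron-sulfur protein that takes electrons from ubiquinol in complex III (chromosome 13, 30540308 to 30545362, minus strand, mm10). It measured 199, 271 and 326 TPM in mz_NrKO against 113.7, 185 and 338 TPM in mz_DHet. All 10 knockout embryos lay above the control median, and the ranges overlapped. The log2 difference was 0.46 (SE 0.121; adjusted p = 0.00309). On 8 March, 15 July and 23 February the knockout medians were 275, 236 and 326 TPM against 199, 168 and 246 TPM. The difference lay between 0.43 and 0.52 and was called in all 8 alternatives tried, which include UMI reads (0.52).

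The 4 genes that fell in mz_NrKO belong to 4 complexes. Sdha (chromosome 13, 74322254 to 74350280, minus strand) measured 55.2, 110.5 and 198 TPM against 51.1, 184 and 277 TPM (log2 -0.43, SE 0.155; adjusted p = 0.0305). Of the knockouts 8 of 10 lay below the control median, which pools dates. The Sdha medians were 130 against 191 TPM on 8 March and 73.7 against 83.4 TPM on 15 July. In the single knockout of 23 February Sdha stood at 185 against 175 TPM. Cox5a (chromosome 9, 57521274 to 57532426, plus strand) measured 104.3, 263 and 819 TPM against 132, 270 and 792 TPM (log2 -0.43, SE 0.153; adjusted p = 0.0274). The groups overlapped almost wholly, and the difference lies within dates: the medians were 142 against 231 TPM on 8 March and 427 against 654 TPM on 15 July, but 819 against 424 TPM in the single knockout of 23 February. Atp5g1 (chromosome 11, 96068852 to 96075670, minus strand) measured 370, 621 and 1594 TPM against 538, 713 and 2102 TPM (log2 -0.38, SE 0.126; adjusted p = 0.0184). Its medians were 480 against 674 TPM on 8 March, 1127 against 2015 TPM on 15 July and 649 against 781 TPM on 23 February, lower in the knockout on each. Uqcrb measured 79.7, 143 and 780 TPM against 103.9, 140 and 1039 TPM (log2 -0.39, SE 0.144; adjusted p = 0.0357).

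With only 8 March embryos 5 members rose (Atp5k, Atp5o, Cox4i1, Uqcr10 and Uqcrfs1) and 3 fell (Atp5d, Cox5a and Sdha). Some rises came with high single values among the 6 mz_NrKO embryos. Uqcr10 had a median of 244 and a highest of 798 TPM, against 200 and 290 TPM in controls of that date. Cox4i1 had 843 and 1768 against 683 and 899 TPM, and Atp5k 127 and 309 against 95.7 and 142 TPM. Atp5o had 462 and 951 against 338 and 424 TPM. The part of single libraries in these calls was not tested. In UMI reads, which hold no 15 July embryo, 2 rose (Atp5a1 and Uqcrfs1) and 6 fell (Cox5a, Atp5g1, Uqcrb, Atp5h, Atp5d and Cox8a). Cox5a in UMI reads measured 115 to 245 TPM in 5 mz_NrKO embryos, all below the 260 to 451 TPM of the 16 controls (log2 -1.13). Uqcrb and Atp5g1 were not called without a date factor (log2 -0.11 and -0.24) or within 8 March (-0.30 and -0.31), and Cox5a was not called without a date factor (-0.27). The count of 5 called members became 2 without the low-value filter. It became 3 with median-of-ratios scaling, with the replicate block and with only the 2 groups compared. Uqcrfs1 was called in each of these, so some of the falls were lost in each.

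In mz_DKO 2 of 36 members rose and 7 fell, beside 33.7 percent of all genes called (18.9 percent higher and 14.8 percent lower), with a median of -0.04 over the members and 0.05 over all genes. Both genes that rose belong to complex II. Sdhd (chromosome 9, 50596357 to 50603812, minus strand) measured 37.0, 72.8 and 112 TPM in mz_DKO against 33.7, 46.3 and 67.9 TPM in the same mz_DHet controls, with 8 of 10 above the control median (log2 0.52, SE 0.149; adjusted p = 0.00517). Sdhb measured 63.6, 114.2 and 160 TPM against 46.6, 91.9 and 149 TPM (log2 0.38, SE 0.14; adjusted p = 0.0275). Sdha, which forms the catalytic head with Sdhb, fell: 76.6, 113 and 183 TPM against 51.1, 184 and 277 TPM, with all 10 below the control median (log2 -0.66, SE 0.158; adjusted p = 0.000744). With the replicate block neither Sdhd (log2 0.40; adjusted p = 0.109) nor Sdhb (0.36; adjusted p = 0.102) was called while Sdha was (-0.78), so calls in both directions within the complex were not kept there. Sdhd was also not called in UMI reads (0.37), nor Sdhb with median-of-ratios scaling (0.36) or without a date factor (0.29). The summed complex II level had medians of 311 TPM in mz_DKO and 314 TPM in mz_DHet.

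Cox5a had the smallest p-value of the members in mz_DKO. It measured 76.7, 144 and 302 TPM against 132, 270 and 792 TPM, with 9 of 10 below the control median (log2 -0.73, SE 0.155; adjusted p = 0.000162), and on 8 March the medians were 141 and 231 TPM. Atp5d, the delta subunit of the central stalk (chromosome 10, 80138632 to 80145818, plus strand), measured 122, 342 and 575 TPM against 169, 481 and 631 TPM (log2 -0.64, SE 0.167; adjusted p = 0.00219). Atp5g1 measured 376, 491 and 818 TPM against 538, 713 and 2102 TPM, with 9 of 10 below the control median (log2 -0.44, SE 0.128; adjusted p = 0.0057). All 3 were called under each of the 8 alternatives tried in mz_DKO. Uqcrb (log2 -0.43, SE 0.146; adjusted p = 0.0186), Atp5j2 (log2 -0.62, SE 0.213; adjusted p = 0.0204) and Cox8a (log2 -0.37, SE 0.143; adjusted p = 0.0367) also fell; Cox8a measured 183, 214 and 253 TPM against 177, 276 and 1020 TPM, with all 10 below the control median. Sdha was not called without a date factor (-0.46) or in UMI reads (-0.59).

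**Figure D4:**
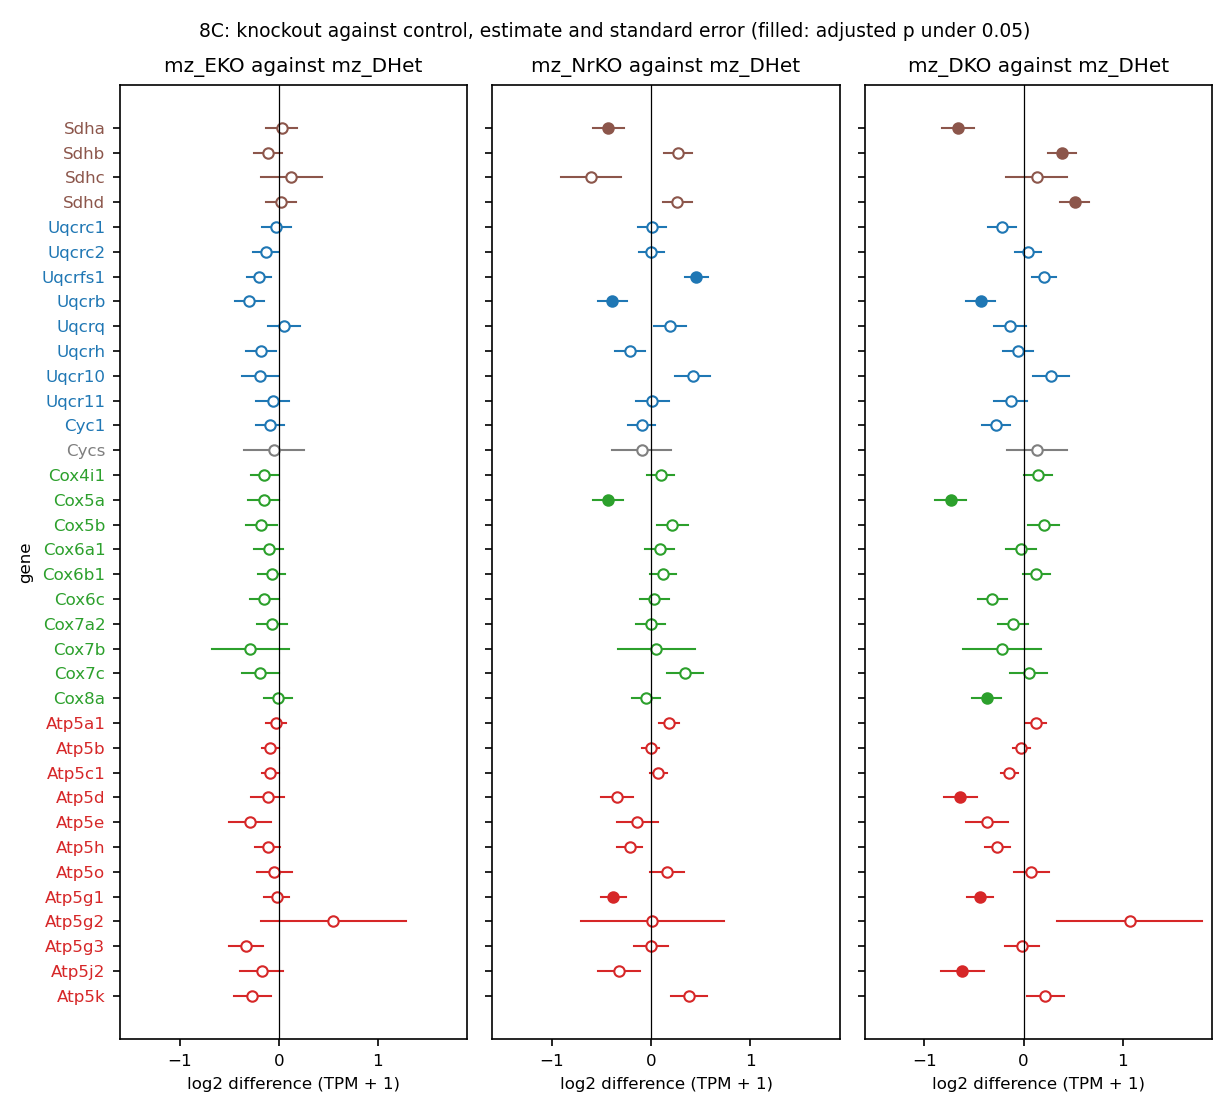
Log2 difference from mz_DHet at 8C of each member (rows, grouped by complex) in mz_NrKO, mz_EKO and mz_DKO (panels). Bars show the standard error to either side of the estimate, and filled points mark an adjusted p under 0.05. Uqcrfs1 lies to the right in mz_NrKO, Cox5a, Sdha and Atp5d to the left in mz_DKO, and no point is filled in mz_EKO.

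Loss of Esrrb alone left every member uncalled at 8C, where 1 gene of 10876 (0.00919 percent), Esrrb itself, passed and 257 genes and 1 member had an unadjusted p under 0.05. The member values were small and mostly negative: 31 of 36 lay below 0, with a median of -0.11 against 0.01 over all genes. The smallest p-values were those of Uqcrb (50.2, 123 and 586 TPM against 103.9, 140 and 1039 TPM; log2 -0.30, SE 0.146) and Atp5g3 (63.5, 222 and 332 TPM against 64.1, 259 and 392 TPM; log2 -0.33, SE 0.17, 95% interval -0.66 to 0.01), both at an adjusted p of 1.

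**Figure D5:**
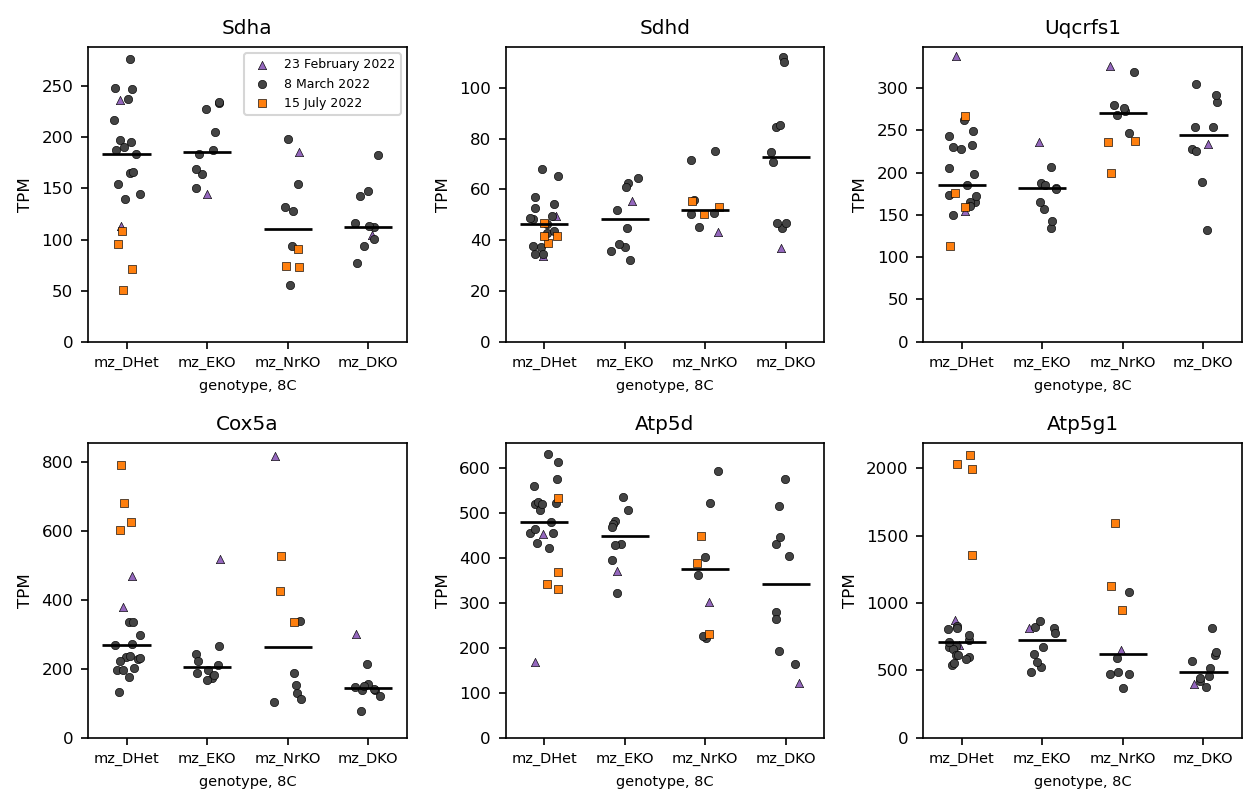
Level (TPM, linear axis from 0) of 6 members in each 8C library by genotype, coloured by the date given in the labels, with bars at the group medians. Uqcrfs1 has a higher median in mz_NrKO than in mz_DHet on each date, Sdha lower in mz_DKO, and the 15 July controls of Atp5g1 and Cox5a stand above those of 8 March.

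The knockouts were also compared directly. Against mz_EKO, mz_NrKO had 3 members higher and none lower, beside 22.7 percent of all genes called (10.9 percent higher). Uqcrfs1 was higher by 0.66 on the log2 scale (SE 0.145; adjusted p = 0.00065), Atp5k by 0.65 (SE 0.222; adjusted p = 0.0283) and Uqcr10 by 0.60 (SE 0.215; adjusted p = 0.036). Uqcrfs1 measured 199, 271 and 326 TPM in mz_NrKO and had a mean of 178 ± 30.0 TPM (SD, n = 10) in mz_EKO. Against mz_EKO, mz_DKO had 3 members higher (Sdhb, Sdhd and Uqcrfs1; log2 0.50, 0.49 and 0.41) and 4 lower (Sdha, Cox5a, Atp5d and Atp5g1; log2 -0.69, -0.58, -0.52 and -0.42), beside 30.2 percent of all genes called (16.8 percent higher and 13.4 percent lower). Between mz_DKO and mz_NrKO no member was called (0.147 percent of all genes were), and 2 had an unadjusted p under 0.05: Atp5c1 (log2 -0.22, SE 0.104, 95% interval -0.42 to -0.01; adjusted p = 0.484) and Sdhc (log2 0.74, SE 0.364, 95% interval 0.03 to 1.45; adjusted p = 0.491).

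Whether an effect at 8C differed from that at L2C was tested as the difference of both effects. For mz_NrKO and mz_EKO no member was called (1.73 and 0 percent of 16024 genes; in mz_EKO 1260 genes and 1 member had an unadjusted p under 0.05). The smallest p-values were those of Atp5g3 (log2 1.03, SE 0.426; adjusted p = 0.205) and Atp5k (1.36, SE 0.595; adjusted p = 0.242) in mz_NrKO, and of Uqcrc2 (0.87, SE 0.398; adjusted p = 0.589) and Sdhb (0.81, SE 0.428; adjusted p = 0.662) in mz_EKO. For mz_DKO 1 member was called beside 5.71 percent of all genes (2.18 percent lower). Atp5d, above the control median in all 6 mz_DKO embryos at L2C and below it in 8 of 10 at 8C with ranges that overlapped at both stages, had a difference of -1.53 (SE 0.496; adjusted p = 0.0485), which was not called in UMI reads (-1.37).

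Stage markers moved with the genotype at 8C. The 8 markers of the 8-cell embryo summed to 197, 1120 and 1841 TPM in mz_DHet, 177, 509 and 2464 TPM in mz_NrKO and 132, 440 and 953 TPM in mz_DKO. The 8 genes of the 2-cell burst summed to 7.00, 28.0 and 59.7 TPM, 5.12, 105.45 and 278 TPM, and 40.7, 147 and 835 TPM in the same groups, with Zscan4c, Zscan4d and Zscan4f at a median of 0 TPM in each. In mz_EKO the medians were 1284 and 25.0 TPM. The part of this in the member differences was not tested. From 4C to 8C 34 of the 36 members had a positive log2 difference in controls. A rise at that step therefore does not set apart the 7 genes that fell in mz_DKO. For those 7 the control medians went from 55.8 to 184 TPM (Sdha), 189 to 270 TPM (Cox5a) and 69.5 to 481 TPM (Atp5d). They went from 18.4 to 140 TPM for Uqcrb and from 350 to 713 TPM for Atp5g1. For Atp5j2 they went from 46.8 to 115 TPM and for Cox8a from 142 to 276 TPM. The genes that rose in mz_DKO went from 44.2 to 46.3 TPM (Sdhd) and from 60.3 to 91.9 TPM (Sdhb).

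An extended nuclear receptor motif, TCAAGGTCA, is the sequence that monomeric orphan receptors of the Nr5a and Esrr families are known to prefer. On either strand it was found in the windows of 2 of the 28 matched members, Atp5g3 and Sdhd, and in 0.423 percent of all windows. Its shorter core AAGGTCA, which it contains, was found in 4 members and in 4.72 percent of all windows. Both are shown, on the strand of the gene, because the data cover their knockouts; the capitals mark the motif, which reads here as its reverse complement, TGACCTTGA.
Atp5g3 (chr2:73911327-73911576): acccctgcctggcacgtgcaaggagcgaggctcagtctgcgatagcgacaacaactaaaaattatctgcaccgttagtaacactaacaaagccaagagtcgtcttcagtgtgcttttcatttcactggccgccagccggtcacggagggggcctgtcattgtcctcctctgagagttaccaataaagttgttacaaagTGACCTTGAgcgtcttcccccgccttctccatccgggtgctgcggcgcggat
Sdhd (chr9:50603800-50603823): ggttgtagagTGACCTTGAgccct
In Atp5g3 (250 bases before the start) the match lies 52 to 44 bases before the start, and in Sdhd 37 to 45 bases after it. Atp5g3 was not called in any comparison between genotypes. Sdhd rose in mz_DKO at 8C and was not called in mz_NrKO or mz_EKO against mz_DHet. A match is a description of letters in a window, and says nothing of binding.

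The authors' deposited table of comparisons names few members past a 1.5-fold change at a false discovery rate under 0.1, both thresholds from its header; the header's further condition, that some library of the stage exceeds 10 TPM, removes none of those named here. It uses other controls in oocytes and at E2C (Nrpp and mz_Nrpp). In the authors' deposited table these are Sdhd in m_NrKO (log2 0.59) and Sdhc in z_NrKO (0.68) at E2C, Cox8a (-0.96) and Atp5d (0.86) in mz_DKO at L2C, and Cox8a (-0.66) in mz_DKO at 4C. For 8C the authors' deposited table has Sdhc (-0.78) and Uqcr10 (0.71) in mz_NrKO, and Sdha (-0.72), Cox5a (-0.71) and Atp5d (-0.59) in mz_DKO. The other comparisons of the authors' deposited table, all 4 in mz_EKO or mz_NrKO at L2C and 4C among them, name none.

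The same fits covered related mitochondrial genes. At 8C, of 14 genes of the tricarboxylic acid cycle 5 fell and none rose in both mz_NrKO and mz_DKO (14.2 and 14.8 percent of all genes were lower), with list medians of -0.27 and -0.30. Idh2, the mitochondrial isocitrate dehydrogenase that uses NADP, stood at 44.2 ± 23.5 TPM (SD, n = 10) in mz_NrKO and 53.5 ± 27.7 TPM (n = 10) in mz_DKO against 115 ± 19.1 TPM (n = 21) in mz_DHet (log2 -1.53 and -1.22). Mdh2, malate dehydrogenase (-0.69 in both), Idh3a (-1.01 and -1.47) and Suclg1 (-0.44 and -0.79) also fell. Of 15 genes of mitochondrial carriers, porins, prohibitins and import proteins 5 and 9 fell and none rose, beside the same shares of all genes. Slc25a5, the ADP/ATP carrier, stood at 1080 ± 922 TPM and 696 ± 226 TPM against 1454 ± 330 TPM (log2 -0.77 and -1.09), Phb, a prohibitin of the inner membrane, at -0.61 and -0.50, and Vdac3, an outer membrane porin, at -0.41 and -0.66.

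Of the 36 complex I subunits 2 rose and 1 fell in mz_NrKO, and 4 rose and 3 fell in mz_DKO, beside 28.3 and 33.7 percent of all genes called in either direction. The share called was lower in this list than over all genes, as it also was for the assembly factors. Ndufv2, an iron-sulfur subunit, stood at 318 ± 110.7 TPM and 321 ± 81.2 TPM against 167 ± 64.3 TPM (log2 0.85 and 1.11), Ndufa8 at -1.10 and -1.25 and Ndufs4 at 0.67 and 0.61. Of 34 assembly factors tested 3 rose and 2 fell in mz_NrKO and 3 rose and 4 fell in mz_DKO. Cox10, which makes haem for cytochrome c oxidase, fell (-1.0 and -1.16), as did Cmc2 (-0.71 and -0.79), and Cox14 rose (1.00 and 0.66). Among 12 other subunits tested Cox7a1 rose in both (1.12 and 1.42) and Cox6b2 in mz_DKO (1.64), while Ndufa4 (-0.54) and Atp5j (-0.35) fell in mz_DKO. Of 15 regulators of respiratory genes 3 fell in mz_NrKO, beside 14.2 percent of all genes: Gabpb1 (-0.58), Polrmt, the mitochondrial RNA polymerase (-0.58), and Nrf1 (-0.45). In mz_DKO 2 fell, beside 14.8 percent of all genes: Polrmt (-0.61) and Esrrb (-0.96), which these embryos lack by genotype. Earlier, in mz_NrKO at E2C, 5.17 percent of all genes were called (4.5 percent lower). There Ndufv1 (-1.01), Cox18 (-0.54), Mdh2 (-0.99), Idh3g (-1.23), Hspd1 (-0.36), Tomm20 (-1.03) and Vdac1 (-0.38) fell. These were 1 of 30 complex I subunits tested, 1 of 30 assembly factors and 2 of 13 genes of the tricarboxylic acid cycle. The rest were 3 of 14 genes of the list of carriers, porins, prohibitins and import proteins. None of 15 regulators or 10 other subunits was called. At 4C in mz_DKO Ndufv2 rose (0.80), and Ndufa8 (-1.62) and Cmc2 (-0.92) fell, and in NrKO oocytes Vdac2 rose (0.62).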

How the data were processed

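Single oocytes and embryos were profiled by RNA-seq of polyadenylated RNA. Per the submitters' processing notes, cutadapt, STAR, RSEM and DESeq2 were used with genome build mm10, with no versions given. The authors deposited TPM for full-length and for UMI reads; a TPM keeps no read count, so the planned choice for counts was replaced by the one for normalized values. Per the file headers, the authors' deposited table holds log2 fold changes and false discovery rates (adjusted p-values). From the full-length table, 65 rows that name no gene were dropped, and 141 of the 514 samples were not analysed here.

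The 36 members and all gene lists were chosen with earlier results of these data known. Values were tested as log2(TPM + 1), which understates changes of low genes, with limma 3.58.1 (R 4.3.3; limma-trend, two-sided, Benjamini-Hochberg over all genes tested). A gene was tested where the number of libraries at 5 TPM or more reached the size of the smallest group. Each stage was 1 fit with group and the date given in the labels; stage steps used the controls alone, with no date term. Calls are at an adjusted p under 0.05, and steps also at 2-fold. The code was tested on simulated data. Positions and transcript lengths come from GENCODE for mm10, and promoter letters from RefSeq. Named in full were, per comparison, all called members (up to 12 by adjusted p) or the 2 with the smallest p, and of each list up to 4 called genes. Alternatives changed the filter, pseudocount, scaling, date term, replicate block, samples, control or kind of read, and a refit of the last step with 8C controls of 8 March alone was added after seeing the data. Replicate numbers did not pair the samples.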

Additional observations from a re-analysis of the deposited data

Results flagged for a closer look

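A sample was noted where its gap to the nearest other library was large for its group (Dixon's test at 95%, groups of 4 to 10 libraries). Of 252 combinations of group and quantity tested, 17 were noted, and chance gives about 1 in 20. All values are TPM.

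At 4C each such library carries the date 22 May 2022. Most libraries of mz_EKO and mz_NrKO at this stage carry that date, and a single one of mz_DKO does. The summed complex II level was 409 in 1 mz_EKO embryo (group median 168) and 387 in 1 mz_DKO embryo (173). In mz_DKO the highest Sdhb was 247 (61.7) and the highest Uqcr10 was 201 (93.96). In mz_NrKO the highest member sum was 7515 (5786), the highest complex IV sum 2153 (1283) and the highest Cox8a 172 (100).

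At 8C each carries the date 23 February 2022. In mz_EKO the highest complex IV sum was 4256 (2610), with Atp5k at 362 (76.3), Cox5a at 520 (205) and Uqcrb at 586 (123). In mz_DKO the highest Uqcrb was 503 (105.1). Each group has a single library of that date, so date and library cannot be told apart.

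At L2C the lowest Atp5g1 in mz_NrKO was 301 (445). In mz_DKO the lowest complex III sum was 709 (985) and the highest Sdhb was 133 (50.7). In Nrpp oocytes the highest Atp5k was 4.98 and the highest Uqcrb 3.24, both against a median of 0.

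The effect of mz_DKO on Atp5d differed between 8C and L2C by -1.53 on the log2 scale in the test of that difference.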

How the results depend on the processing

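Of the counts of called members recomputed under alternatives, 152 were within 1.5 times the reported count, 12 were higher and 16 lower; of the values of single named members, 452 kept direction and call, 64 lost the call, 11 gained one and 3 changed sign. The 3 were Cox6c in z_NrKO at E2C (-0.0561 within 7 November), Atp5g2 from L2C to 4C (0.24 with a pseudocount of 0.1) and Cycs from 4C to 8C (0.24 in UMI reads). For mz_NrKO at E2C the count of 1 became 0 without the low-value filter, with the replicate block, with only the 2 groups compared, within 1 August, within 7 November and with mz_Nrpp as control, and 3 without a date factor. With no date factor 3 members were called in mz_NrKO and 1 in mz_EKO at L2C, and within 17 June 2022 1 was called in mz_DKO at 4C. For mz_NrKO at 8C the count of 5 became 2 without the filter, 3 with median-of-ratios scaling, 2 without a date factor, 3 with the replicate block, 3 with only the 2 groups, 8 in UMI reads and 8 within 8 March 2022. For mz_DKO at 8C the count of 9 became 4 with the replicate block. Between mz_NrKO and mz_EKO the count of 3 became 1 without the filter, 7 without a date factor, 5 with the replicate block and 7 within 8 March 2022, and between mz_DKO and mz_EKO 7 became 4 without a date factor. In UMI reads 1 member was called from L2C to 4C and 11 from 4C to 8C. In full-length reads, with 21 rather than 16 controls at 8C, 22 were called at the last step. For the change of effect from L2C to 8C, mz_NrKO had 1 call without a date factor and 1 in UMI reads, and the call in mz_DKO became 0 in UMI reads. Leaving out each knockout library in turn gave 0 calls in mz_NrKO and in mz_EKO at 4C. At E2C only mz_NrKO replicate 1 was left out, with 1 call in mz_NrKO and 0 in m_NrKO and z_NrKO; the cause of each difference was not tested. Same-numbered libraries of different groups did not deviate together (mean correlation between -0.04 and 0.00 by stage), and at 8C 7 of 40 libraries correlated best with their own number, so the block pairs numbers and not embryos. The depth is unknown, and levels near 0 TPM set no bound on expression.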
